A study of Mus musculus with 6 samples.

Results

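The transcripts of Trp53, which encodes the transcription factor p53, and of 9 of its target genes were followed in 6 bulk RNA-seq libraries. All 10 genes (Trp53, Mdm2, Bax, Bbc3, Pmaip1, Phlda3, Eda2r, Zmat3, Aen and Trp53inp1) were chosen by name and were found among the 41325 gene rows of the files. The 3 elemental diet libraries came from ICR female mice, an outbred stock, purchased when 10 weeks old and given 7 days to settle. They had intraperitoneal 5-fluorouracil (5-FU) for 3 weeks, 2 injections weekly of 20 mg/kg, and were dosed by mouth with an elemental diet (Elental, an amino acid based liquid formula) at 1.6 kcal in 0.8 mL per day. The 3 saline libraries came from mice with the same 5-FU course that were given the same volume of saline by mouth. In both groups oral dosing took place 2 times a day, 5 times a week, and all mice also ate a commercial diet. Every mouse received 5-FU and no library without it was analysed here, so the only contrast was elemental diet against saline under 5-FU. The labels give 3 mice per group without tying a library to a mouse, so the p-values below measure the spread between libraries.

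p53 is held at a low level in unstressed cells by the ubiquitin ligase MDM2, and DNA damage frees it to switch on genes of cell cycle arrest, repair and cell death. 5-FU depletes thymidylate and is built into RNA and DNA, and it is a classical activator of p53. Among the targets studied here, Mdm2 feeds back on p53 itself, Bax, Bbc3 (PUMA) and Pmaip1 (NOXA) act on the mitochondrial outer membrane, and the others modulate survival signalling, RNA or autophagy. Much of p53 regulation acts on the protein, which RNA-seq does not measure.

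The p53 protein binds a pair of 10-base elements with a C at position 4 and a G at position 7 of each. RefSeq promoter windows of GRCm38.p6, running from 250 bases before to 50 bases after a transcription start, were at hand for 7 of the 10 genes in 10 windows. They were searched for the p53 response element consensus, which reads the same on both strands, with up to 13 bases between the elements. The best-matching pair in capitals is shown in the bases upstream of a Bax start and of a Bbc3 start. Both are mitochondrial death genes that were lower with elemental diet. The Bax run is the minus strand of chr7:45466899-45467148 and the Bbc3 run the plus strand of chr7:16309333-16309582, and no exon of GENCODE M21 overlaps either.
Bax: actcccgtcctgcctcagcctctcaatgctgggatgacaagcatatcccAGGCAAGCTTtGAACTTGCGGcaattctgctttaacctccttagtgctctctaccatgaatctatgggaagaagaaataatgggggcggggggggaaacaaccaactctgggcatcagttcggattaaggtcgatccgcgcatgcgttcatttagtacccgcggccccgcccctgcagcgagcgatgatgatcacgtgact
Bbc3: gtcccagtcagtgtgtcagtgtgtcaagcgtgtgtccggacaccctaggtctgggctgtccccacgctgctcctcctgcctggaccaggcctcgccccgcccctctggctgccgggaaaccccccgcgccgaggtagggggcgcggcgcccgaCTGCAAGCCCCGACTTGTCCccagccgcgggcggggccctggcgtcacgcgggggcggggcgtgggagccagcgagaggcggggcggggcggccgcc
The Bax pair had 2 letters off the consensus over its 20 positions, and 4.09% of all 32851 windows held a pair at least as close. The Bbc3 pair had 3 letters off, as did the closest pairs of Aen and Trp53, and 15.6% of all windows held one that close. Some genes have several windows. By the best window of each gene, 17.4% of 27025 genes held a pair that close, and 4.71% a pair as close as that of Bax. Bbc3 had 3 windows. Another of them, chr7:16310011-16310310, also held a pair with 3 letters off, with 2 bases between its elements. The pair without bases between its elements is shown. The closest pairs of Mdm2, Phlda3 and Eda2r had 4, 5 and 6 letters off, as close as in 40.4%, 68.7% and 86.7% of all windows. For Aen and Trp53 only the pair is shown, and for Mdm2 only a perfect single element, which is not part of its closest pair. The Aen pair lies in an untranslated exon at chr7:78895937-78895956 (plus strand) and the Trp53 pair upstream of the gene at chr11:69580284-69580303 (plus strand), and a perfect single element of Mdm2 lies at chr10:117710935-117710944 (minus strand).
Aen: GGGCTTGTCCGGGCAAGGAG
Trp53: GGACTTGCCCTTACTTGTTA
Mdm2: GAACTTGCCT
A perfect single element was present in 5 of the 10 windows, those of Trp53, Mdm2, Bax and Aen, and in 8.36% of all windows. Counted by gene, it was in 4 of the 7 genes and in 9.55% of all 27025 genes with a window. These matches describe letters and not binding, and the genes that hold one moved in both directions. Pmaip1, Zmat3 and Trp53inp1, all lower with elemental diet, had no window at hand and were not searched.

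The libraries held 29053287 to 33073125 reads assigned to genes, and a count of 0 allows up to 3 reads, or 0.0907 to 0.103 CPM (counts scaled to a library total of 1000000), counting error only. The tissue label, salivary gland, was not matched by its markers, and the labels' extraction text names fibroblasts or keratinocytes. Of 12 salivary gland markers 4 (Smgc, Pip, Bpifa1 and Prb1) had no read in any library, and Aqp5, the acinar water channel, had 0 to 4 reads per library. All 12 together summed to between 7.57 and 8.95 CPM with elemental diet, against 13.2 to 16.1 CPM with saline. Erythroid and lymphoid markers were far more abundant. The 9 erythroid markers summed to between 33652.5 and 35083.1 CPM with elemental diet, against 2504 to 3926 CPM with saline, and all 9 passed the test as higher. The 8 markers of dividing cells summed to between 3922 and 4379 CPM with elemental diet, against 156 to 161 CPM with saline, and all 8 were higher. The 8 B cell markers summed to between 691 and 775 CPM with elemental diet, against 6379 to 6634 CPM with saline. The 8 T cell markers summed to between 57.7 and 66.6 CPM with elemental diet, against 473 to 576 CPM in saline libraries, with all 8 of each list lower. All 7 neutrophil precursor markers were higher with elemental diet, from 194 to 217 CPM in sum against 8.51 to 11.5 CPM with saline, and 6 of 7 macrophage markers were lower, from 310 to 396 CPM with elemental diet against 938 to 1146 CPM with saline. In these bulk libraries fewer cells of a type and less RNA per cell cannot be told apart, and the part of these shifts in the results below was not tested.

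The comparison sets the diet against saline in mice that all received 5-FU. The 10 genes did not move as a block. By edgeR's quasi-likelihood test with Benjamini-Hochberg adjustment over 18303 genes, 2 were higher with elemental diet (Trp53 and Aen), 6 were lower (Mdm2, Bax, Bbc3, Pmaip1, Zmat3 and Trp53inp1), and Phlda3 and Eda2r did not pass. A call was common in this contrast: 78.1% of all genes tested were called, 38.0% higher and 40.2% lower. The share called among the 10 genes was therefore near the background. Their median log2 fold change was -0.19, against -0.08 over all genes tested. Only Pmaip1, Trp53inp1 and Aen moved by more than 2-fold, and these were the sole genes of the set whose change was larger in size than that of most genes tested, at 84.6%, 68.5% and 63.2% of them. For the remaining 7 genes, the share of all genes with a smaller change ran from 9.29% (Mdm2) to 29.6% (Trp53).

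**Figure D1:**
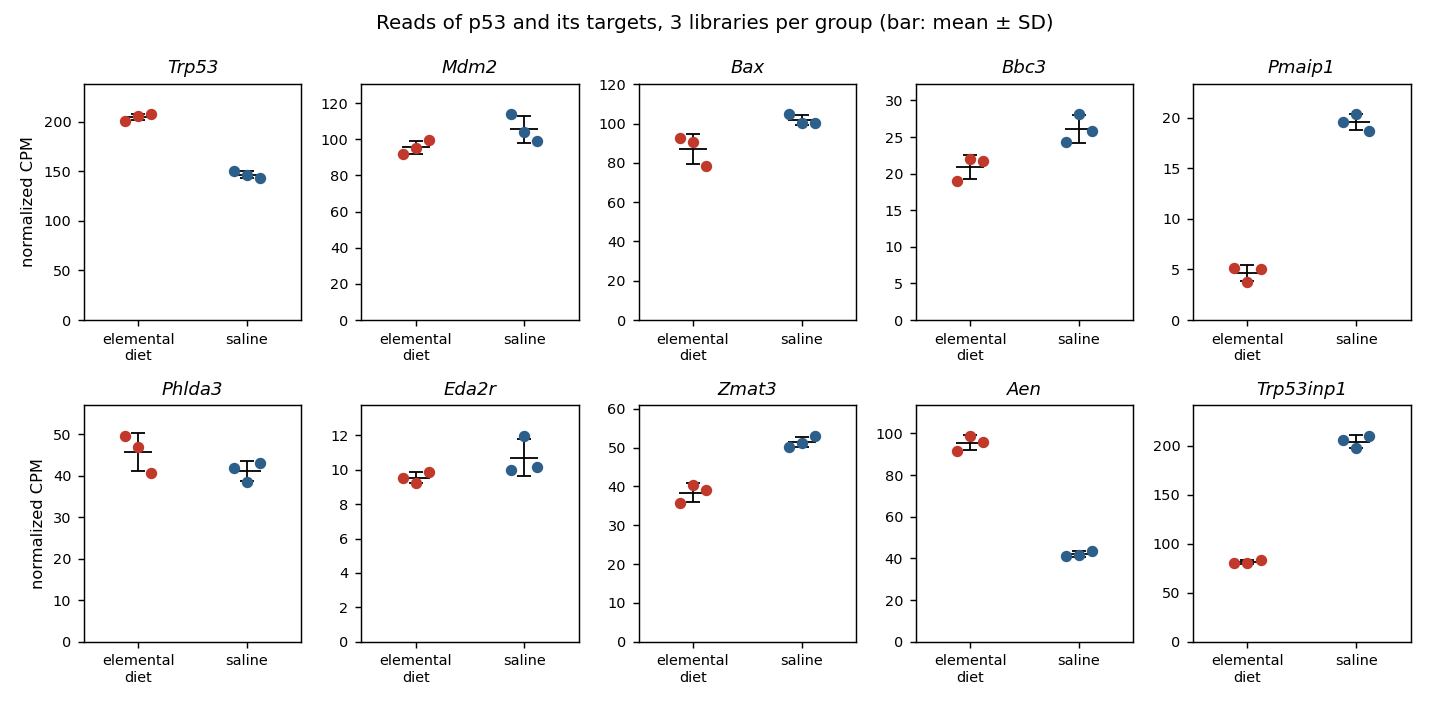
Normalized CPM (vertical axes, each starting at 0) of the 10 genes in the 3 elemental diet libraries (red) and the 3 saline libraries (blue), with mean and SD. Pmaip1 and Trp53inp1 sit far lower with elemental diet and Aen far higher, while the 2 groups overlap for Mdm2 and Phlda3.

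Trp53 (GRCm38 chromosome 11, 69580359 to 69591873, plus strand) had 201, 205 and 207 CPM in the elemental diet libraries, against 150.0, 146 and 144 CPM in the saline libraries. The groups did not overlap, as was true of 81.0% of all genes tested. The log2 fold change was 0.48 (SE 0.05, adjusted p = 2.88e-07), a 1.40-fold higher level with elemental diet. Mdm2 (chromosome 10, 117688875 to 117710758, minus strand), the ligase that degrades p53 and is itself a p53 target, had 92.0, 95.1 and 99.5 CPM with elemental diet, against 114, 104 and 98.7 CPM with saline. The highest elemental diet library lay above the lowest saline library. Its log2 fold change of -0.14 (SE 0.06) passed with an adjusted p = 0.0386. That call rested on single libraries: without elemental diet replicate 1, elemental diet replicate 2 or saline replicate 1 the adjusted p was 0.117, 0.13 or 0.0921. On this scale Mdm2 thus differed by much less than Trp53, and in the opposite direction. That order of sizes depended on the scaling, as given below.

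Among the mitochondrial death genes the size of the fall differed widely. Bax (chromosome 7, 45461697 to 45466898, minus strand), the effector that forms pores in the outer membrane, had 92.8, 90.5 and 78.5 CPM with elemental diet, against 105, 100.2 and 100.4 CPM with saline. All 3 elemental diet libraries were below all 3 saline libraries, and the log2 fold change was -0.22 (SE 0.06, adjusted p = 0.00498). Without elemental diet replicate 3, the lowest library, it was -0.14 (adjusted p = 0.031). Between 87.4% and 89.8% of the Bax reads were unique to it with elemental diet, against 83.6% to 84.9% with saline, and on unique reads the log2 fold change was -0.19 (adjusted p = 0.0173). The gene shares 915 bases with Gm45808 on the same strand, which held 4 to 30 reads per library. Bbc3 (chromosome 7, 16308393 to 16318205, plus strand), a BH3-only activator of BAX, had 19.0, 22.0 and 21.7 CPM with elemental diet, against 24.3, 28.1 and 25.8 CPM with saline. Again the groups were apart, by a smaller margin than their own ranges, with a log2 fold change of -0.32 (SE 0.09, adjusted p = 0.00399).

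Pmaip1 (chromosome 18, 66458604 to 66465550, plus strand), a BH3-only protein that neutralises MCL1, fell furthest of the 10 genes. It had 5.18, 3.78 and 5.08 CPM with elemental diet, against 19.6, 20.3 and 18.7 CPM with saline. Every saline library held more than 3 times the level of any elemental diet library. The level was 4.19-fold lower with elemental diet (log2 fold change -2.07, SE 0.13, adjusted p = 2.75e-09). It rested on 111 to 141 reads per elemental diet library and 609 to 679 per saline library.

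The genes of survival signalling and of RNA and DNA handling also split. Trp53inp1 (chromosome 4, 11156431 to 11174379, plus strand), a stress-induced cofactor of p53 that also takes part in autophagy, had 80.2, 80.9 and 83.3 CPM with elemental diet, against 206, 198 and 210.0 CPM with saline. The gap between the groups was many times the spread within either, at a 2.51-fold lower level (log2 fold change -1.33, SE 0.05, adjusted p = 8.76e-12). Aen (chromosome 7, 78895854 to 78911209, plus strand), a nuclease that enhances apoptosis, moved the other way. It had 91.6, 98.7 and 96.1 CPM with elemental diet, against 41.1, 41.8 and 43.7 CPM with saline. The groups were far apart and the level was 2.26-fold higher (log2 fold change 1.18, SE 0.05, adjusted p = 8.31e-11). Of the Aen reads 70.2% to 70.8% were unique with elemental diet, against 64.9% to 67.9% with saline, and unique reads alone gave 1.23 (adjusted p = 2.24e-11).

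Zmat3 (chromosome 3, 32334792 to 32366014, minus strand), a zinc-finger protein that binds RNA, had 35.7, 40.5 and 39.0 CPM with elemental diet, against 50.2, 51.1 and 52.9 CPM with saline. The groups did not overlap, and the level was 1.34-fold lower (log2 fold change -0.42, SE 0.06, adjusted p = 2.71e-05). Phlda3 (chromosome 1, 135766119 to 135769136, plus strand), a pleckstrin homology protein that restrains AKT, had 49.5, 46.8 and 40.5 CPM with elemental diet, against 41.8, 38.5 and 43.1 CPM with saline. These ranges overlapped, and the log2 fold change of 0.15 (95% interval -0.01 to 0.31) missed the threshold, with an adjusted p = 0.0874 that fell to 0.00482 without elemental diet replicate 3. Eda2r (chromosome X, 97333840 to 97377216, minus strand), a receptor of the TNF receptor superfamily for ectodysplasin A2, had 9.52, 9.22 and 9.89 CPM with elemental diet, against 9.97, 12.0 and 10.2 CPM with saline. The highest elemental diet library sat just under the lowest saline library, and the log2 fold change of -0.17 (95% interval -0.42 to 0.09, adjusted p = 0.208) did not pass.

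The smaller changes depended on the scaling between libraries. Under TMM scaling the median over all genes tested was -0.08 (log2 fold change), with RLE it was -0.04, with upper quartile factors -0.35 and with library totals alone -0.39, and all-gene calls moved from 6951 higher and 7352 lower to 5407 and 9265 with library totals alone. A change of scaling shifts the log2 fold changes of all genes by nearly the same amount. Taken relative to the median of all genes, each gene's change was therefore bound to agree, to within 0.01 in these 4 scalings. This agreement is no test of the changes. On that relative scale Aen was 1.26 above the median, Trp53 0.56 above and Phlda3 0.23 above. Mdm2 and Eda2r lay at -0.06 and -0.08, Bax at -0.14, Bbc3 at -0.23 and Zmat3 at -0.34. Trp53inp1 and Pmaip1 lay furthest below the median, at -1.25 and -1.98. In absolute terms library totals alone gave 0.17 for Trp53, -0.53 for Bax, -0.63 for Bbc3 and -0.73 for Zmat3, all still called. Phlda3 turned to -0.12 and -0.16 with upper quartile factors and library totals, and Eda2r was then called lower (adjusted p = 0.00397 and 0.00256). For Mdm2 the call was lost with RLE factors (adjusted p = 0.144) and with exon reads alone (adjusted p = 0.126). With upper quartile factors and library totals Mdm2 was called lower, at -0.42 (adjusted p = 1.18e-05) and -0.45 (adjusted p = 6.89e-06). Under both of these scalings Mdm2 differed by more than Trp53 (0.21 and 0.17).

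**Figure D2:**
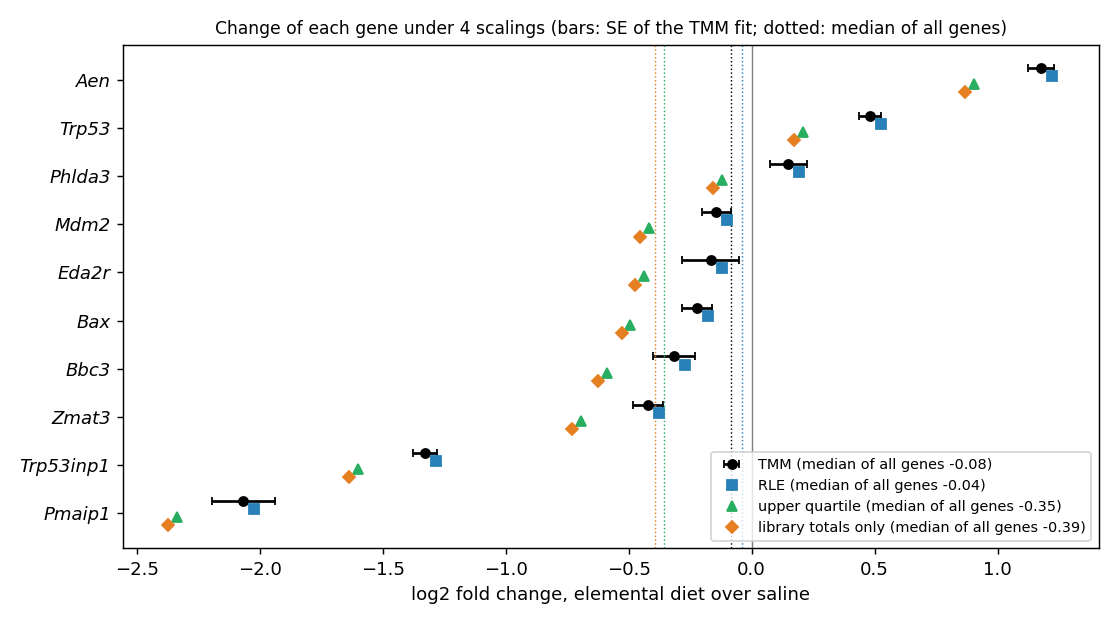
Log2 fold change of each gene, elemental diet over saline (horizontal axis), under 4 scalings between libraries, with the SE of the TMM fit as bars and the median of all genes as dotted lines. Aen and Trp53 stay on the higher side in all 4, while Phlda3 changes side. Pmaip1, Trp53inp1, Zmat3, Bbc3, Bax, Eda2r and Mdm2 stay on the lower side in all 4, though Eda2r and Mdm2 are not called in each.

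Levels between genes were compared per length, as the authors' TPM (transcripts scaled per length to a fixed total), which hold no composition factor. With elemental diet the order ran from Bax (141 ± 13.5 TPM, SD, n = 3) and Trp53 (122 ± 0.677) over Phlda3 (73.4 ± 8.15), Mdm2 (42.3 ± 0.757), Aen (42.0 ± 0.864), Trp53inp1 (30.7 ± 0.583), Bbc3 (22.2 ± 1.76) and Zmat3 (8.55 ± 0.406) to Pmaip1 (4.48 ± 0.775) and Eda2r (3.64 ± 0.195). With saline it ran from Bax (213 ± 7.63 TPM) over Trp53inp1 (104 ± 2.47), Trp53 (102 ± 2.61), Phlda3 (89.4 ± 4.69), Mdm2 (55.6 ± 3.65), Bbc3 (35.8 ± 2.06), Pmaip1 (24.4 ± 0.934), Aen (23.8 ± 0.442) and Zmat3 (15.2 ± 0.177) to Eda2r (5.22 ± 0.590). Neighbours whose libraries overlapped were Mdm2 with Aen and Pmaip1 with Eda2r under elemental diet, and Trp53inp1 with Trp53 and Pmaip1 with Aen under saline. Trp53inp1 ranked below Mdm2 and Aen with elemental diet but next to Bax and Trp53 at the top with saline, and Aen ranked beside Mdm2 with elemental diet but beside Pmaip1 near the bottom with saline. On the TPM scale Phlda3 ranged from 64.9 to 81.1 with elemental diet, against 84.0 to 92.4 with saline, so it was lower in every elemental diet library there.

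Intron reads are a part of the total reads tested above and were also examined on their own. Of all reads, the elemental diet libraries held 8.64% ± 0.225 in introns and the saline libraries 14.0% ± 0.341 (SD, n = 3 each). For Trp53 the intron share was 7.64%, 7.84% and 8.54% in the elemental diet libraries, against 19.9%, 19.6% and 18.8% in the saline libraries. That gap was wider than the gap over all reads, and a two-sided exact permutation over the 6 libraries gave p = 0.1, the lowest value that 20 arrangements can reach. The intron shares of Mdm2 (14.3% ± 1.19 with elemental diet against 23.4% ± 1.83 with saline), Bax (2.98% ± 0.200 with elemental diet against 5.90% ± 0.413 with saline) and Aen (2.96% ± 0.486 with elemental diet against 6.43% ± 0.591 with saline) were also lower with elemental diet without overlap, each at an exact permutation p = 0.1. Phlda3 alone of the 10 had a higher intron share without overlap (4.63% ± 0.298 with elemental diet against 3.16% ± 0.217 with saline, exact permutation p = 0.1), on 45 to 68 intron reads with elemental diet and 42 to 46 with saline. For Bbc3, Pmaip1, Eda2r, Zmat3 and Trp53inp1 the groups overlapped. Such a gap was common: of 13277 genes with enough exon and intron reads, 65.4% had an intron share without overlap between the groups, 59.9% lower and 5.59% higher with elemental diet, so 4 lower of 10 is not above the background.

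**Figure D3:**
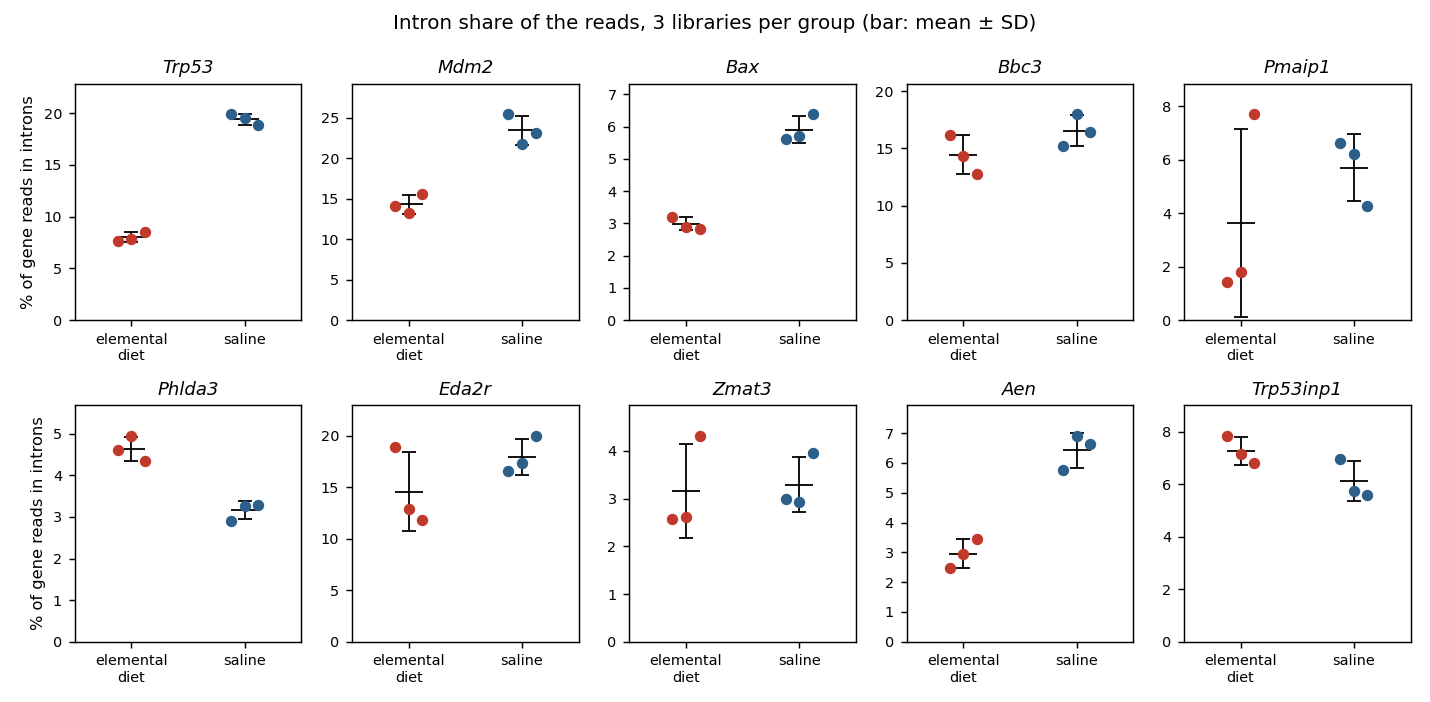
Share of each gene's reads that lay in introns, in percent (vertical axes, each starting at 0), in the 3 elemental diet libraries (red) and the 3 saline libraries (blue), with mean and SD. Trp53, Mdm2, Bax and Aen have a lower intron share with elemental diet in every library, and Phlda3 a higher one.

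Exon and intron reads of Trp53 moved in opposite directions. Its exon reads were higher with elemental diet (log2 fold change 0.56, SE 0.04, edgeR adjusted p = 3.68e-08) and its intron reads lower (-0.32, SE 0.09, adjusted p = 0.00189). The introns held 418, 473 and 453 reads in the elemental diet libraries, against 1032, 953 and 879 in the saline libraries. A model over both read types, each scaled within its own type, tested the difference itself in the same 13277 genes, of which 39.9% were called. For Trp53 the intron change minus the exon change was -0.80 on the log2 scale (SE 0.09, adjusted p = 2.8e-07). Aen differed in the same sense by -0.50 (SE 0.17, adjusted p = 0.0236), a call lost without elemental diet replicate 1 (adjusted p = 0.104), saline replicate 2 (0.0929) or saline replicate 3 (0.0832), and with no composition factors (0.115). Trp53inp1 (0.94, SE 0.12, adjusted p = 1.3e-06) and Phlda3 (1.25, SE 0.20, adjusted p = 3.07e-05) differed in the other sense. The introns of Trp53inp1 fell by 0.60 and its exons fell by 1.46, while the introns of Phlda3 rose by 1.19 (adjusted p = 0.000123) with an exon change of 0.01 (adjusted p = 0.884). Thus 4 of the 10 genes were called, near the background share. Bax (-0.36, adjusted p = 0.0501) and Zmat3 (0.60, adjusted p = 0.0533) narrowly missed the threshold. Pmaip1 fell in exons (-2.15) and in introns (-2.21), and the difference of -0.01 (SE 0.39) did not pass (adjusted p = 0.989). Its introns held 2, 2 and 10 reads in the elemental diet libraries, against 45, 42 and 26 in the saline libraries, and the difference was -1.25 without elemental diet replicate 3 and 0.45 without elemental diet replicate 1.

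Of 35 further p53 targets, all tested, 13 were higher, 17 lower and 5 did not pass, with a median log2 fold change of -0.21. The share called was 85.7%, against 78.1% of all genes tested (38.0% higher and 40.2% lower, median -0.08). With upper quartile factors the split was 8 higher and 22 lower (all genes 5601 and 9051), and with library totals alone 6 and 22 (all genes 5407 and 9265). Cdkn1a, the gene of p21, the inhibitor that carries out p53-dependent cell cycle arrest, had 128, 128 and 125 CPM with elemental diet, against 124, 121 and 118 CPM with saline. The groups did not overlap, by a narrow margin. Its log2 fold change was 0.07 (95% interval -0.03 to 0.17, adjusted p = 0.2). Its call followed the scaling: it was called higher with RLE (0.11, adjusted p = 0.0471) and DESeq2 (0.12, adjusted p = 0.0353) and lower with upper quartile factors (-0.20, adjusted p = 0.000767) and library totals (-0.24, adjusted p = 0.000264), and stood at -0.06 on exon reads (adjusted p = 0.223). Ccng1, cyclin G1, was 1.11-fold higher (adjusted p = 0.00515) but was called lower under the last 2 scalings (-0.11, adjusted p = 0.0175, and -0.15, adjusted p = 0.00317) and did not pass on exon reads (0.05, adjusted p = 0.308). The largest rises were those of Ckap2, a protein of the mitotic spindle (69.4 ± 5.20 with elemental diet against 5.90 ± 0.0616 CPM with saline, SD, n = 3 each), Pidd1, the scaffold that activates caspase-2 (5.06-fold), and Gadd45a, a growth arrest and stress gene (3.09-fold). The largest falls were those of Perp, a membrane protein of desmosomes (0.786 ± 0.299 with elemental diet against 4.49 ± 0.393 CPM with saline), Ddit4, an inhibitor of mTORC1 (4.97-fold), and Tigar, a fructose bisphosphatase (4.83-fold). Fas, the death receptor, was 3.89-fold lower, at 5.88 ± 1.16 with elemental diet against 22.9 ± 1.75 CPM with saline.

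Among 25 regulators of p53 11 were higher, 8 lower and 6 did not pass, with a median log2 fold change of 0.05. The share called was 76%, against the same 78.1% of all genes. Under upper quartile factors 9 were higher and 13 lower, and under library totals 8 and 13, beside the all-gene splits given above. Mdm4, the partner of MDM2 that masks the p53 activation domain, had 215, 229 and 246 CPM with elemental diet, against 365, 368 and 370.2 CPM with saline. It was lower in every elemental diet library, by 1.60-fold (log2 fold change -0.67, SE 0.05, adjusted p = 3.6e-08). The checkpoint kinase genes Chek1 (63.5 ± 2.33 with elemental diet against 3.68 ± 0.564 CPM with saline, SD, n = 3 each) and Chek2 (71.2 ± 2.82 with elemental diet against 15.6 ± 0.800 CPM with saline) rose most, 17.3-fold and 4.57-fold, followed by Ppp1r13l, which encodes the p53 inhibitor iASPP, at 3.28-fold. The falls were led by the p53 relative Trp63, at 0.378 ± 0.0552 with elemental diet against 1.77 ± 0.307 CPM with saline, by Cdkn2a, the locus of p16 and of the MDM2 inhibitor p19ARF, at 2.48-fold lower, and by the acetyltransferase gene Crebbp at 1.85-fold lower.

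Of the 29 genes of the death machinery 28 had enough reads to be tested, and 14 were higher, 8 lower and 6 did not pass, with a median log2 fold change of 0.27. The share called was 78.6%, as over all genes (78.1%). With upper quartile factors 13 were higher and 12 lower, and with library totals 12 and 12, while over all genes most calls were then lower. Htra2, a mitochondrial protease, and Cycs, cytochrome c, rose 3.37-fold and 3.29-fold, and Apaf1, the apoptosome scaffold, rose 2.39-fold to 109 ± 6.39 CPM with elemental diet against 45.7 ± 1.5 CPM with saline (SD, n = 3 each). Bcl2, the survival protein of lymphocytes, fell most, with 33.5 ± 2.57 with elemental diet against 163 ± 6.21 CPM with saline. Bmf, a BH3-only gene, and Bcl2a1b, an anti-apoptotic gene with near-identical copies, were 4.17-fold and 3.42-fold lower, and Bcl2a1b fell by 1.61 on the log2 scale on unique reads. These rises and falls lay between the same elemental diet and saline libraries that differed in the cell markers above. Any gene that differed between the groups therefore did so together with those markers, and the part of those cells was not tested.

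**Figure D4:**
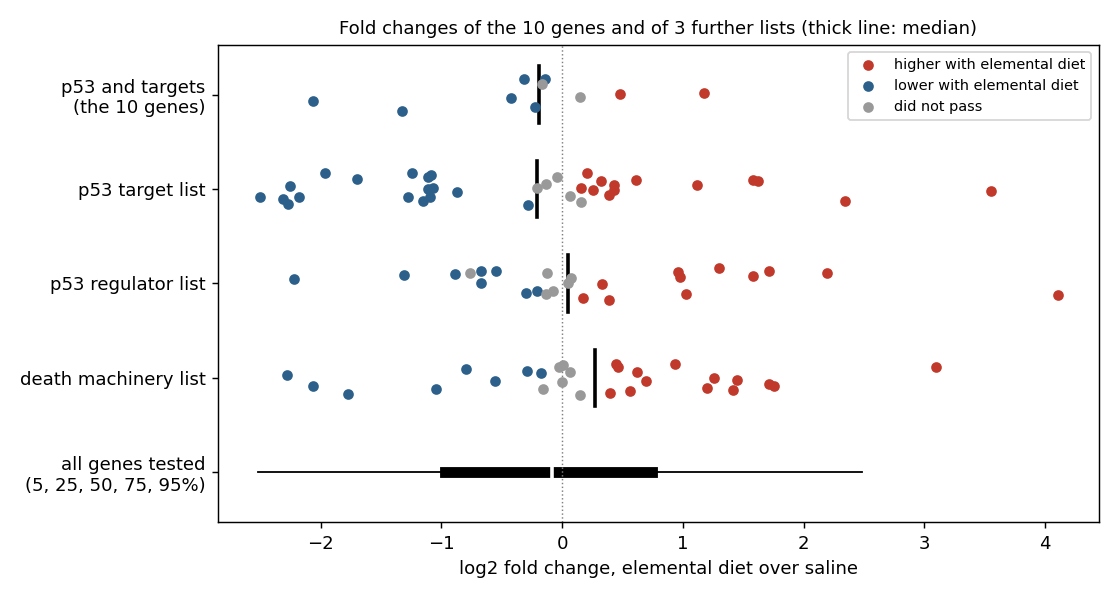
Log2 fold change, elemental diet over saline (horizontal axis), of the 10 genes and of every tested gene of 3 further lists, coloured by call, with each list's median as a thick line and percentiles of all genes tested at the bottom. Each list spreads to both sides of 0, from -2.50 to 3.56 for the p53 targets, and the medians lie at -0.19, -0.21, 0.05 and 0.27 against -0.08 over all genes.

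For the 8 of the 10 genes that passed the test, the genes most like each in these libraries were taken from the 88 tested genes of the 3 lists, by the root mean square distance of centred log2 CPM over the 6 libraries. Aen lay closest to Casp2 (distance 0.04) and Apaf1 (0.06), and Trp53 to Bcl2l11 (0.04) and Pvt1 (0.05), all 4 of which were higher with elemental diet. Pmaip1 lay closest to Ephx1 (0.13) and Ddit4 (0.17), and Trp53inp1 to Trp53i13 (0.08) and Plk2 (0.11), all of which were lower. The closest genes to Mdm2 were Gdf15 (0.05), which did not pass the test, and Rchy1 (0.06). Those to Bax were Dffa (0.07) and Rchy1 (0.08), and those to Zmat3 Ppp1r13b (0.07) and Dffa (0.09). Those to Bbc3 were Trp53bp2 (0.06) and Dffb (0.08), of which Dffb also did not pass. Since the libraries form only 2 groups, this likeness largely follows the size of the difference between them.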

How the data were processed

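RNA-seq libraries labelled salivary gland, 3 of 5-FU-treated mice with elemental diet and 3 with saline, were grouped by their titles. Per the labels' protocols, polyadenylated RNA was sequenced as paired reads. Per the file headers, the authors deposited read counts for each gene as whole numbers, for exons and introns, all reads and unique ones, and TPM. The submitters' processing notes name GRCh37 and GRCm38; the aligner, counter, strand use and filters are not given in those sources. Coordinates are those of the files.

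Total gene reads were tested by the quasi-likelihood test of edgeR 4.0.16 under R 4.3.3 (robust glmQLFit, then glmQLFTest), with TMM scaling, filterByExpr (18303 genes kept) and Benjamini-Hochberg adjustment at 0.05. CPM are TMM-scaled, except for marker sums and floors, which use library totals. The SE is the absolute log2 fold change over the square root of F, and 95% intervals use the moderated degrees of freedom. Exon and intron columns were fitted together with a term per library. Tests were tried on simulated data first. Replicates differed by at least 2.93 times sampling noise (chi-square over genes), so no library was a repeat deposit of another; this does not show that they are separate mice.

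The 10 genes and the lists were chosen with earlier results of these data known. Genes named beside the 10 were, per list, the 3 largest rises and 3 largest falls among called genes of at least 1 CPM, plus Cdkn1a, Mdm4, Ccng1, Fas and Apaf1. One gene that this rule names is not reported here. The promoter search was chosen after the data were seen. Alternatives were other scalings, no low-count filter, DESeq2 1.42.0, unique or exon reads, a replicate block, leaving out hemoglobin and immunoglobulin genes, and leaving out each library.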

Additional observations from a re-analysis of the deposited data

How the results depend on the processing

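The calls and directions of Trp53, Bax, Bbc3, Pmaip1, Zmat3, Aen and Trp53inp1 held in all 15 alternatives, with log2 fold changes of 0.17 to 0.56, -0.53 to -0.14, -0.63 to -0.24, -2.37 to -1.92, -0.73 to -0.36, 0.87 to 1.23 and -1.64 to -1.28 in this order. Mdm2 was no longer called in 6, among them DESeq2 (log2 fold change -0.09, adjusted p = 0.269). Phlda3 was called higher by RLE and DESeq2 (adjusted p = 0.0311 and 0.0482) and turned to -0.12 (upper quartile factors) and -0.16 (library totals). Ccng1 turned to -0.11 and -0.15, and Cdkn1a to -0.20 and -0.24. On exon reads alone Cdkn1a was at -0.0623. Counts that moved by more than 1.5 times were those of the p53 targets called higher (13, against 8 with upper quartile factors and 6 with library totals) and of the regulators called lower (8, against 13 in both). Over all genes 7352 were called lower, against 9051 and 9265 under these 2 scalings. The median log2 fold change over all genes was -0.08 in the main fit, against -0.35 and -0.39 under them. Why the scalings differ was not tested.

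The replicate numbers are only names, so they were not taken as pairs. Deviations of same-numbered libraries correlated at 0.12, -0.01 and 0.06, and those of differently numbered libraries at -0.10 to 0.06. With the replicate number as a block, 2 of the 10 genes were higher and 6 lower, as without it, and over all genes 6925 were higher and 7316 lower. With any single library left out, 2 to 3 of the 10 were higher and 5 to 6 lower. Over all genes 6708 to 7095 were then higher and 7023 to 7580 lower. An intron change unlike the exon change was called in 3 to 5 of the 10, near the 39.9% of 13277 genes called with all libraries kept. With all libraries, no composition factors gave 5 of the 10. Unique exon and intron reads gave 6, among them Bax (adjusted p = 0.0325) and Zmat3 (adjusted p = 0.0417). The share over all genes under these settings is not given here. Depth limits the intron values of Pmaip1, which rest on 2 to 10 reads per elemental diet library.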
